A study of Drosophila melanogaster with 34 samples.

Results

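Heads of female flies kept for 8 days at 29 °C were compared with heads of female flies kept for 8 days at 25 °C, both in darkness, by RiboMeth-seq of Drosophila melanogaster rRNA. The comparison holds 8 libraries, 4 at 29 °C and 4 at 25 °C, of the 34 in the series, and they were chosen by their group label. Genotype, strain, age and the number of flies per library are not given in the labels. RiboMeth-seq breaks RNA by alkaline hydrolysis and counts fragment ends: a 2′-O-methyl group on a ribose protects the bond beside it, so a methylated position collects few read ends. Each table lists the same 72 rRNA sites, of which 24 lie in 18S rRNA, 47 in 28S rRNA and 1 in 5.8S rRNA, each with a methylation score made by the authors that ends at 1 for full protection. The tables hold rRNA positions only, so neither the tissue nor the temperature label could be checked against marker genes.

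Box C/D snoRNPs place most 2′-O-methyl groups on rRNA: their snoRNA base-pairs with the target and the methyltransferase Fibrillarin modifies the ribose opposite the guide. A few sites are instead methylated by stand-alone enzymes that recognise the rRNA directly. The modified riboses cluster in functional regions of the ribosome, and a site that is methylated in only a share of the rRNA makes ribosomes differ from one another. Flies do not hold their own body temperature, and 25 °C is a usual rearing temperature of the species, so the pair of groups asks which sites move when the animals are kept 4 °C warmer.

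The score was higher at 29 °C than at 25 °C at 5 of 72 sites (6.94%) and lower at 0 of 72 (0%) (limma with Benjamini-Hochberg adjustment, threshold 0.05). The 5 sites were 28S Gm2243, 18S Cm1303, 18S Am441, 18S Gm393 and 28S Gm2502, with rises of 0.0222, 0.0610, 0.0267, 0.00761 and 0.00965 on the score scale. All 5 were already highly protected at 25 °C, with mean scores from 0.903 to 0.975. At an unadjusted p under 0.05, 13 sites were higher and 2 lower at 29 °C. The fit took in the 4 libraries kept at 18 °C, which share the estimate of spread but not the contrast. Fitted on the 8 libraries alone, 12 sites were higher and 0 lower, the same 5 among them. With scores centred on each library's median, 12 sites passed, 5 higher and 7 lower at 29 °C, and 4 of the 5 were among them. The median score of a library was on average 0.00281 higher at 29 °C, the shift that centring removes.

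The rise with the smallest adjusted p was at 28S Gm2243, a guanosine of 28S rRNA with 1 listed guide. Its score was 0.987, 0.983, 0.987 and 0.987 in the 29 °C libraries, against 0.970, 0.961, 0.962 and 0.962 in the 25 °C libraries. The groups did not overlap, and the gap between them was wider than the spread within either. The means were 0.986 ± 0.00222 at 29 °C and 0.964 ± 0.00401 at 25 °C (4 libraries each, SD), a difference of 0.0222 with a 95% interval from 0.0161 to 0.0282 (limma, adjusted p = 0.000625). Coverage at the position was 163263 to 240905 reads at 29 °C and 145892 to 179753 at 25 °C.

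The read ends behind 28S Gm2243 moved with the score, with the larger fall at the 5′ end. There were 391, 386, 327 and 301 5′ ends in the 29 °C libraries, against 724, 939, 875 and 674 in the 25 °C libraries. The 3′ ends numbered 97, 53, 93 and 76 at 29 °C, against 73, 106, 165 and 129 at 25 °C. Fewer 5′ ends were thus counted in each 29 °C library than in any 25 °C library. The 3′ ends were also fewer on average at 29 °C, but their counts overlapped between the groups. Coverage ran higher at 29 °C, so the counts understate the fall in 3′ share. Per 10000 reads of coverage, 5′ ends averaged 18.0 ± 3.79 at 29 °C and 47.7 ± 3.66 at 25 °C (4 libraries each, SD), a ratio of 0.376.

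18S Cm1303, a cytidine of 18S rRNA with 1 listed guide, had the largest rise of all 72 sites. Its score was 0.962, 0.961, 0.974 and 0.959 at 29 °C, against 0.926, 0.895, 0.901 and 0.889 at 25 °C. Every 29 °C library stood above every 25 °C library, and the 25 °C libraries were spread more widely. The means were 0.964 ± 0.00700 at 29 °C and 0.903 ± 0.0165 at 25 °C (4 libraries each, SD), a difference of 0.0610 with a 95% interval from 0.0388 to 0.0832 (limma, adjusted p = 0.00369). Its 5′ ends were 203, 126, 99 and 150 at 29 °C, against 250, 418, 401 and 396 at 25 °C, at a coverage of 48308 to 77175 reads over the 8 libraries. Per 10000 reads of coverage this was 24.1 ± 5.15 at 29 °C and 68.7 ± 13.2 at 25 °C (4 libraries each, SD), and the 3′ ends averaged 6.0 ± 1.46 at 29 °C and 12.2 ± 4.30 at 25 °C.

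18S Gm1300, of unknown guide, lies 3 bases from 18S Cm1303. Whether the scores of the 2 sites share neighbouring positions could not be checked, since no source used here gives the score's formula. Its score was 0.873, 0.873, 0.874 and 0.863 at 29 °C, against 0.878, 0.883, 0.832 and 0.828 at 25 °C. The 29 °C values lay close together and inside the range at 25 °C, where replicates 1 and 2 were high and replicates 3 and 4 low. The difference of 0.0154 did not pass (95% interval -0.0213 to 0.0520, limma, adjusted p = 0.555), and the ratio of 5′ end shares was 0.95, against 0.350 at 18S Cm1303.

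The other rises that passed were smaller or less well measured, and each depended on the libraries used. 18S Am441, an adenosine with 1 listed guide, had scores of 0.964, 0.958, 0.962 and 0.948 at 29 °C, against 0.924, 0.945, 0.934 and 0.922 at 25 °C. The groups came close, with the lowest 29 °C library just above the highest 25 °C library. The difference was 0.0267 (95% interval 0.0122 to 0.0412, limma, adjusted p = 0.0455), at the lowest depth of the 5 sites, 11389 to 20794 reads. The counts were small: 23, 26, 17 and 25 5′ ends at 29 °C, against 32, 37, 56 and 42 at 25 °C.

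28S Gm2502 is the 1 site of the 5 annotated as of unknown guide. Its score was 0.987, 0.985, 0.982 and 0.985 at 29 °C, against 0.975, 0.976, 0.977 and 0.974 at 25 °C. The step was small but larger than the spread in either group, with a difference of 0.00965 (95% interval 0.00423 to 0.0151, limma, adjusted p = 0.0455). Its 5′ ends were 189, 180, 229 and 168 at 29 °C, against 441, 436, 418 and 354 at 25 °C. The 3′ ends numbered 355, 245, 411 and 324 at 29 °C, against 340, 357, 328 and 275 at 25 °C. Over coverage of 159151 to 276008 reads, the share of 5′ ends was therefore 0.404 times that at 25 °C and the share of 3′ ends 0.885 times.

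18S Gm393, a guanosine with several listed guides, had scores of 0.973, 0.978, 0.971 and 0.973 at 29 °C, against 0.964, 0.968, 0.970 and 0.963 at 25 °C. The difference of 0.00761 (95% interval 0.00320 to 0.0120, limma, adjusted p = 0.0455) was the smallest of the 5. It had few 5′ ends, 18, 15, 23 and 19 at 29 °C, against 23, 29, 26 and 25 at 25 °C. Its summed read end share did not pass (log2 difference -0.34, limma, adjusted p = 0.162). One of its listed guides is also listed for 28S Gm2774, where the score differed by -0.00183 (95% interval -0.00600 to 0.00233, adjusted p = 0.543).

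28S Gm2243 and 18S Cm1303 passed in all 20 other limma fits of the score, leave-one-out fits included (adjusted p from 4.67e-05 to 0.0226 and from 0.000266 to 0.0178). An exact permutation test per site, in which 4 against 4 libraries cannot go below 0.0286, passed 0 of 72 sites after adjustment, these 2 included (smallest adjusted p = 0.121). In the limma fits 18S Am441 passed in 9, 28S Gm2502 in 7 and 18S Gm393 in 5 of the 20. 18S Am441 kept its call without Heat_29 replicate 4 (adjusted p = 0.0438) or Heat_25 replicate 2 (0.0158) and lost it without each of the other 6 libraries (0.0592 to 0.131). 28S Gm2502 lost its call without any 1 of the 8 libraries (0.0562 to 0.131). 18S Gm393 kept it without Heat_25 replicate 3 (0.0392) and lost it without any of the other 7 (0.0562 to 0.152). These 3 sites also lost their calls without Heat_18 replicate 1 (0.0645 to 0.0656), and 18S Am441 and 18S Gm393 without Heat_18 replicate 4 (0.0587 and 0.0681).

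**Figure D1:**
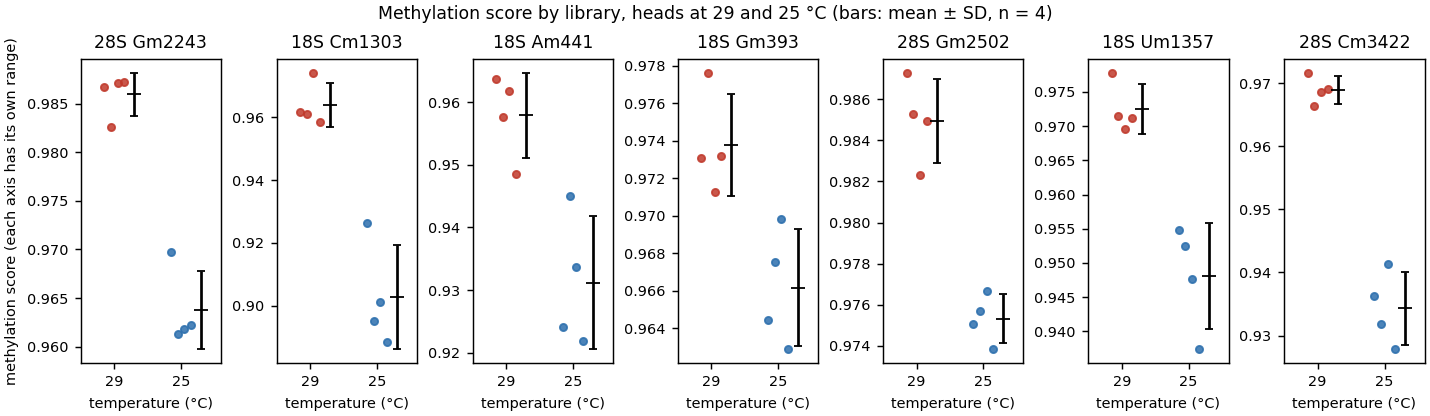
Methylation score (y axis, a score that ends at 1, with its own range in each panel) in the 4 libraries at 29 °C (red) and the 4 at 25 °C (blue) for the 5 sites that passed and for 18S Um1357 and 28S Cm3422. Points are libraries and black bars mean ± SD; at each of the 7 sites all 29 °C libraries lie above all 25 °C libraries.

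At 3 further sites among the 10 largest differences towards 29 °C, 28S Cm3422, 18S Um1357 and 28S Gm789, the groups did not overlap but the fit over 12 libraries did not pass them. 28S Cm3422, a cytidine with 1 listed guide, had scores of 0.972, 0.966, 0.969 and 0.969 at 29 °C, against 0.936, 0.932, 0.941 and 0.928 at 25 °C. The difference was 0.0346 (95% interval -0.00190 to 0.0711, limma, adjusted p = 0.258), and on the 8 libraries alone the adjusted p was 0.000277. Without Heat_18 replicate 2, which enters through the spread alone, the adjusted p was 0.00178. The 5′ ends numbered 21, 21, 19 and 24 at 29 °C, against 65, 80, 50 and 80 at 25 °C, and the 3′ ends 290, 212, 266 and 248, against 459, 514, 381 and 334. Both kinds of end were fewer at 29 °C, with shares 0.256 and 0.505 times those at 25 °C and no overlap between the groups in either. Both mean shares were also lower at 29 °C at 18S Cm1303.

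18S Um1357, a uridine with several listed guides, had scores of 0.978, 0.971, 0.970 and 0.971 at 29 °C, against 0.955, 0.952, 0.948 and 0.937 at 25 °C. The difference was 0.0244 (95% interval 0.00805 to 0.0407, limma, adjusted p = 0.0906), and on the 8 libraries alone the adjusted p was 0.00473. Its 5′ ends were 28, 20, 18 and 22 at 29 °C, against 50, 65, 71 and 61 at 25 °C. The nearby site 18S Gm1359, which shares a listed guide with it and lies outside the rule for named sites, differed by -0.00319 (95% interval -0.0102 to 0.00387, adjusted p = 0.542). The other 5 sites that passed on the 8 libraries alone were 18S Gm475, 18S Am549, 28S Cm1679, 28S Am1691 and 28S Cm2744, with rises of 0.00665 to 0.0132; 18S Am549 is again outside the rule.

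The scores of the 2 groups did not overlap at 15 sites with 29 °C higher (20.8%) and at 2 sites with 25 °C higher (2.78%). Beside the 5 sites that passed, 28S Cm3422 and 18S Um1357, the first set held 18S Gm475, 28S Gm789, 28S Cm1679, 28S Am1691, 28S Gm1692, 28S Cm2744, 28S Cm3412 and 5.8S Gm74. 28S Gm789 had the widest of these steps, at 0.961, 0.960, 0.955 and 0.963 in the 29 °C libraries, against 0.951, 0.942, 0.949 and 0.927 in the 25 °C libraries (difference 0.0176, adjusted p = 0.289). 28S Am1691 and 28S Gm1692 are adjacent and share listed guides, with differences of 0.00956 and 0.00592. Whether their scores are independent was not tested. 5.8S Gm74, the single listed site of 5.8S rRNA, had 0.992, 0.989, 0.987 and 0.987 at 29 °C, against 0.985, 0.986, 0.986 and 0.977 at 25 °C (difference 0.00539, adjusted p = 0.289).

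Neither site with 25 °C higher passed the test. 28S Um3162, of unknown guide, had 0.855, 0.862, 0.865 and 0.860 at 29 °C, against 0.890, 0.890, 0.873 and 0.866 at 25 °C. The groups nearly touched, and the difference was -0.0192 (95% interval -0.0353 to -0.00321, limma, adjusted p = 0.157). At this site the 3′ end share was 1.22 times and the 5′ end share 0.962 times that at 25 °C. 28S Am2659 differed by -0.00448 (adjusted p = 0.457), on 23, 15, 14 and 19 3′ ends at 29 °C, against 8, 11, 10 and 6 at 25 °C.

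18S Am469 had the largest difference towards 25 °C, -0.0258, at 0.797, 0.762, 0.792 and 0.791 in the 29 °C libraries, against 0.834, 0.803, 0.821 and 0.786 in the 25 °C libraries. The groups overlapped (95% interval -0.0558 to 0.00421, adjusted p = 0.289). The other 7 of the 10 largest differences in that direction were between -0.00802 at 28S Cm2716 and -0.00421 at 28S Am2634, with 28S Gm3326, 28S Um[Psi]3454, 18S Am[m62A]1976, 18S Am[m62A]1977 and 28S Gm3184 between them. Coverage was low at 18S Am[m62A]1976, 549 to 797 reads, and at 18S Am[m62A]1977, 455 to 643 reads. Despite its score, 18S Am[m62A]1977 had 5194 to 6576 5′ ends per 10000 reads at 29 °C and 4563 to 7311 at 25 °C. Beside 18S Am1272, given with the read ends, the 3 of the 10 largest differences towards 29 °C not yet described were at 28S Cm813, 18S Cm419 and 28S Am3006, at 0.0216, 0.0184 and 0.0158 (adjusted p = 0.230, 0.289 and 0.447).

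**Figure D2:**
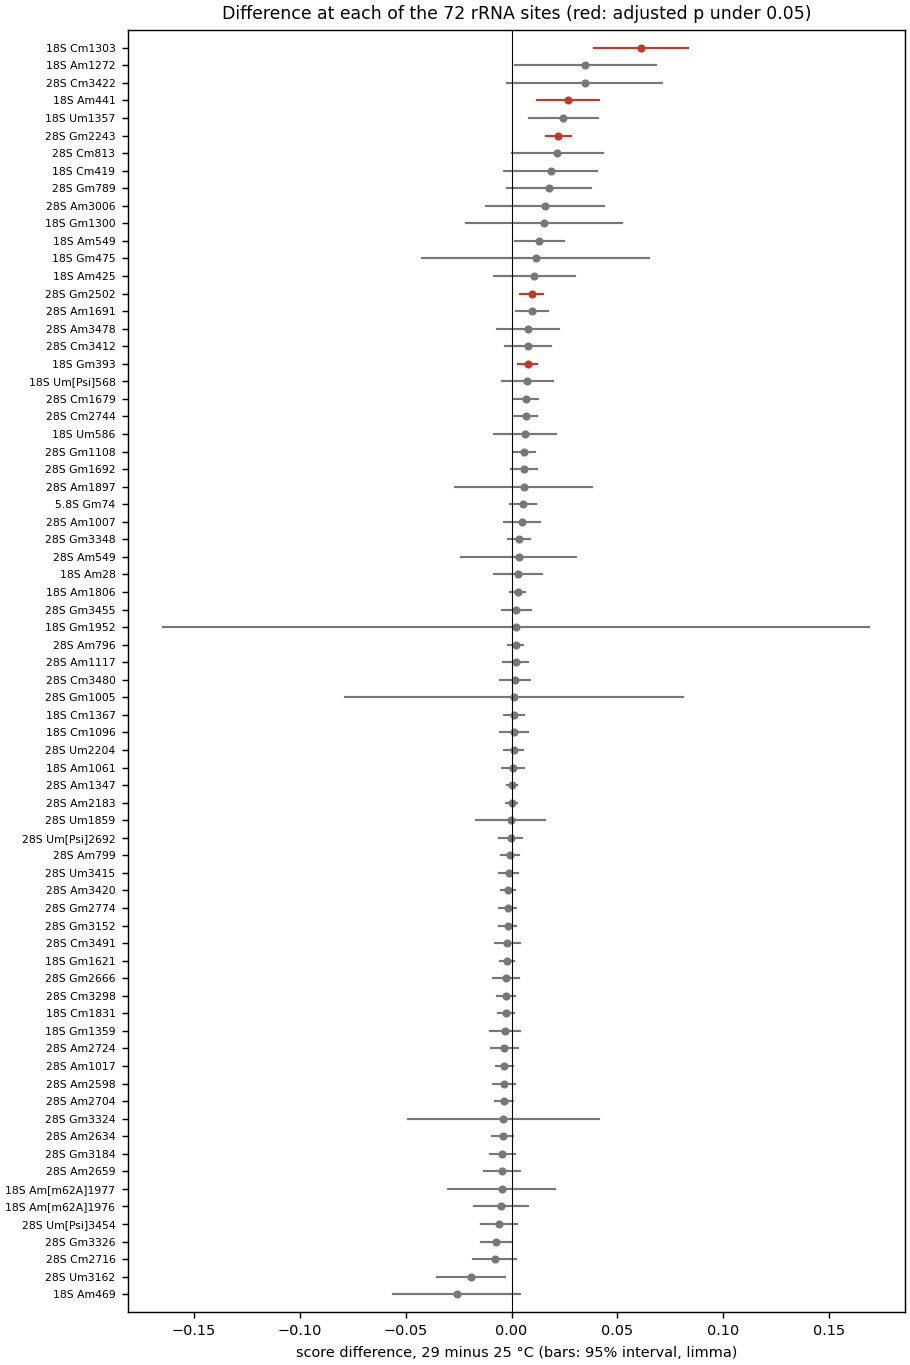
Score difference, 29 minus 25 °C (x axis, score units), at each of the 72 sites (rows, sorted by the difference), with 95% intervals from limma. Red marks the 5 sites with an adjusted p under 0.05, all of them to the right of 0. 18S Gm1952 has the widest interval, which takes in its wide spread at 18 °C.

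Across all 72 sites the difference was above 0 at 44 and below 0 at 28, with a median of 0.00179. The classes of sites are described beside that without a test. In 18S rRNA 18 of 24 sites were higher at 29 °C, 3 passed, and the median difference was 0.00471. In 28S rRNA 25 of 47 were higher, 2 passed, and the median was 0.000165. By base, the median was 0.00416 over 14 C sites, 0.00232 over 21 G sites, 0.00128 over 28 A sites and -0.000288 over 9 U sites. Sites with a listed guide numbered 59, of which 4 passed, with a median of 0.00130, and sites of unknown guide 11, of which 1 passed, with a median of 0.00567.

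The 10 sites with a mean score under 0.9 gave no call. 18S Gm1952, the least protected site, had 0.125 ± 0.0303 at 29 °C and 0.123 ± 0.0262 at 25 °C (4 libraries each, SD). Its 95% interval ran from -0.164 to 0.169. That interval takes in the spread of the 18 °C libraries, which was far wider, at -0.207 to 0.224 (SD 0.192). 28S Gm3324 had 0.802 ± 0.0103 at 29 °C and 0.806 ± 0.0388 at 25 °C, and 18S Am1272 0.848 ± 0.0141 and 0.813 ± 0.0262. 28S Am1897, 28S Am549 and 18S Um[Psi]568 differed by 0.00567, 0.00337 and 0.00746, each by less than its spread at 25 °C. 28S Am3006, 18S Gm1300, 28S Gm3324, 18S Am1272 and 18S Gm1952 were also the 5 sites that varied most between libraries of 1 group.

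Sites with a named enzyme did not pass. 28S Um[Psi]3454, listed as CG8939-dependent, had 0.951 ± 0.00318 at 29 °C and 0.957 ± 0.00565 at 25 °C (4 libraries each, SD). The adjacent 28S Gm3455, listed with yeast SPB1, had 0.977 ± 0.00470 and 0.975 ± 0.00510. The 95% intervals of the 2 differences ran from -0.0144 to 0.00280 and from -0.00471 to 0.00934. In yeast SPB1 methylates a guanosine of the large subunit rRNA without a guide.

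How closely a difference was bounded varied between sites. The 95% interval lay within ±0.01 at 28 sites, within ±0.02 at 48 and within ±0.05 at 64 of the 72. The 5 differences nearest to 0 were at 28S Am2183, 28S Am1347, 28S Um1859, 28S Um[Psi]2692 and 18S Am1061. At 28S Am1347 the 29 °C libraries averaged 0.997 ± 0.000702 and the 25 °C libraries 0.997 ± 0.000944 (SD, n = 4 each), with an interval of the difference from -0.00219 to 0.00252. At 28S Um1859, of unknown guide, the averages were 0.926 ± 0.00601 at 29 °C and 0.926 ± 0.00838 at 25 °C, with a wider interval from -0.0165 to 0.0160.

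The read ends were then tested by themselves, as log2 of the ends listed for the site over its coverage with 1 added to the ends. No source used here states how the positions of the 5′ and 3′ counts relate to the methylated base. Each count was taken as listed for its site. They come from the same reads as the score and are no independent evidence. With both kinds of end summed, 7 sites were lower at 29 °C (9.72%) and 0 higher (limma, adjusted p under 0.05). They were 28S Gm2243, 18S Cm1303, 28S Cm3422, 28S Gm2502, 18S Um1357, 18S Am441 and 28S Cm2744, with log2 differences from -1.42 at 18S Cm1303 to -0.57 at 28S Cm2744. 28S Cm2744 had 0.988, 0.986, 0.987 and 0.988 as scores at 29 °C, against 0.981, 0.981, 0.982 and 0.977 at 25 °C, and 86, 73, 71 and 55 5′ ends, against 89, 97, 101 and 93. Coverage itself, as a share of the library's sum over the 72 sites, passed at 0 sites (limma, smallest adjusted p = 0.262; 1 at an unadjusted p under 0.05).

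The kinds of end differed in how many sites passed, a split looked at more closely after the values were seen. With 5′ ends alone 18 sites were lower at 29 °C (25%) and 0 higher, and with 3′ ends alone 0 sites passed in either direction (limma; 7 at an unadjusted p under 0.05), a contrast between 2 tests that was not itself tested. The groups did not overlap in 5′ share at 23 sites with 29 °C lower (31.9%) and at 1 with 29 °C higher (1.39%), and at 16 of the 18. Of the 18 sites, 3 also passed by score and 16 had a higher mean score at 29 °C. The 18 log2 differences of 5′ ends lay between -1.89 at 28S Cm3422 and -0.63 at 28S Cm2744, while their 3′ ends differed by -0.98 to 0.71. The median over all 72 sites was -0.43 for 5′ ends and 0.03 for 3′ ends, so most sites lay on the lower side for 5′ ends. The 5′ median differed by level of the mean score, without a test. It was -0.55 over 56 sites of at least 0.95, -0.33 over 6 sites from 0.9 to 0.95 and 0.0014 over 10 sites under 0.9. With each library's shares centred on its own median, 6 sites passed, 4 lower and 2 higher. Without Heat_29 replicate 4 the count was 11. Summed over the 72 sites, 5′ ends per 100 3′ ends numbered 101, 101, 84.1 and 84.6 in the 29 °C libraries, against 99.8, 98.1, 103 and 105 in the 25 °C libraries. The ratio was thus lowest in replicates 3 and 4 at 29 °C, which also had the highest median 3′ shares of their group, at 14.8 and 14.5 per 10000 reads, beside 10.8 and 12.1 in replicates 1 and 2. The part of this in the 5′ calls was not tested.

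At 18S Am1272, an adenosine of unknown guide, the 2 kinds of end did not move together: 75, 57, 49 and 56 5′ ends at 29 °C, against 118, 136, 164 and 178 at 25 °C, with 843, 520, 534 and 455 3′ ends, against 478, 543, 733 and 499. The 5′ groups did not overlap (log2 difference -1.32, limma, adjusted p = 0.00532) and the 3′ groups did (0.03, adjusted p = 0.909). The score overlapped as well, at 0.830 to 0.859 in the 29 °C libraries, against 0.789 to 0.841 in the 25 °C libraries (difference 0.0348, limma, adjusted p = 0.229). 5.8S Gm74 had 56, 88, 89 and 49 5′ ends at 29 °C, against 153, 170, 138 and 223 at 25 °C, at a coverage of at least 213241 reads (log2 difference -1.52, adjusted p = 0.00532). 28S Gm3184 had 8, 5, 7 and 3, against 8, 17, 10 and 18 (log2 difference -1.26, adjusted p = 0.00660), with a 3′ share 1.5 times that at 25 °C and a lower mean score.

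**Figure D3:**
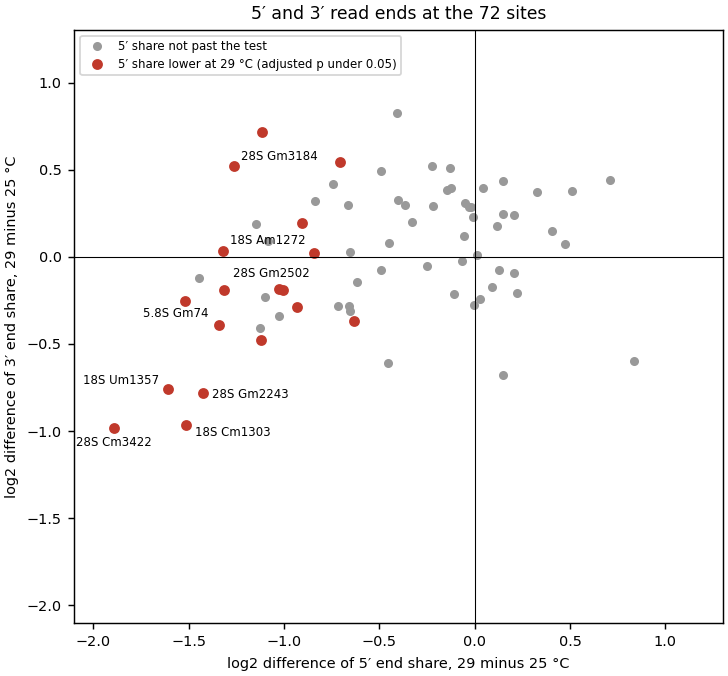
Log2 difference, 29 minus 25 °C, of the 5′ end share (x axis) and of the 3′ end share (y axis) at the 72 sites, each share being read ends over coverage with 1 added to the ends. Red points are the 18 sites whose 5′ share was lower at 29 °C in limma; they lie left of 0 on the x axis and on both sides of 0 on the y axis.

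The remaining 5′ calls were at 28S Cm1679, 28S Am1691, 28S Gm1692, 18S Cm1367, 18S Am1061, 18S Gm475, 28S Am2634, 28S Am1117 and 28S Gm1108, of which 18S Cm1367, 28S Am1117 and 28S Gm1108 are outside the rule for named sites. Their log2 differences ran from -1.34 at 18S Gm475 to -0.71 at 18S Am1061. At 28S Am2634 the share was 0.262 ± 0.215 per 10000 reads at 29 °C and 0.583 ± 0.112 at 25 °C (4 libraries each, SD), a difference of few reads. Per library, the median 5′ share over the 72 sites was 2.21, 3.39, 2.99 and 2.0 per 10000 reads at 29 °C, against 2.86, 4.17, 3.48 and 4.8 at 25 °C. These medians overlapped (exact two-sided permutation test, p = 0.114), and for 3′ ends the means were 13.1 ± 1.95 at 29 °C and 13.1 ± 1.03 at 25 °C (4 libraries each, SD).

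**Figure D4:**
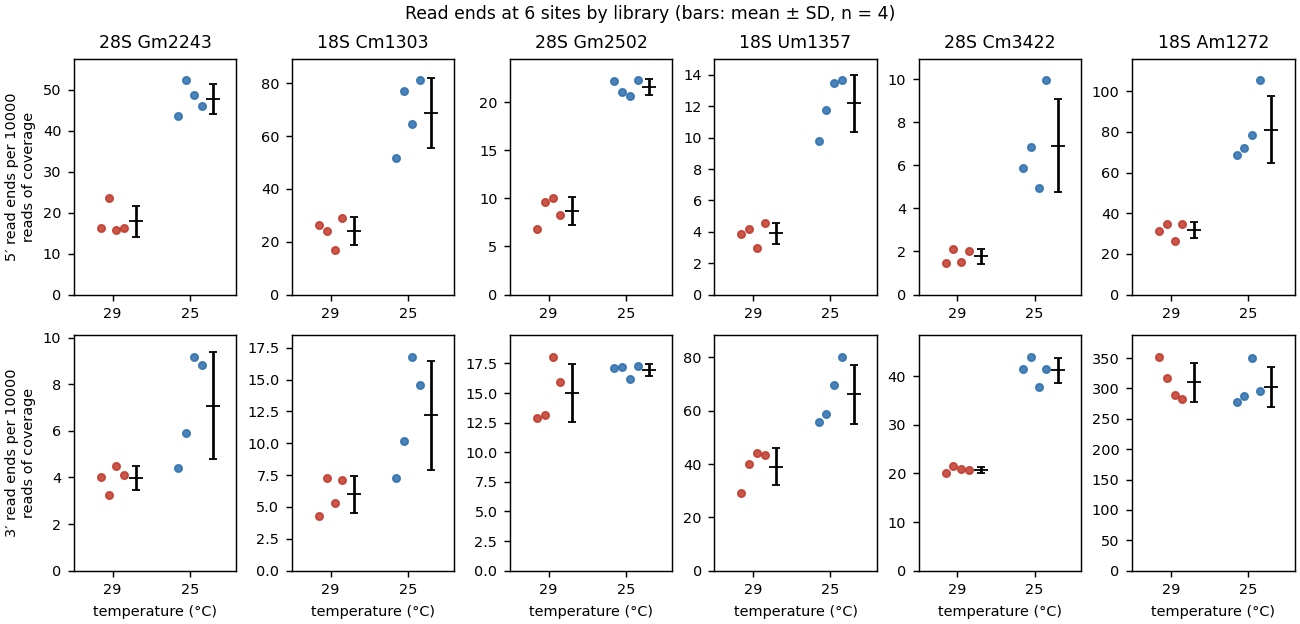
5′ read ends (upper row) and 3′ read ends (lower row) per 10000 reads of coverage in each library at 29 °C (red) and 25 °C (blue) for 6 sites, with mean ± SD as black bars and axes that start at 0. The 5′ shares do not overlap at any of the 6 sites, and the 3′ shares do not overlap at 18S Um1357 and 28S Cm3422.

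The mean score over the 72 sites was 0.951, 0.949, 0.949 and 0.948 in the 29 °C libraries, against 0.949, 0.946, 0.944 and 0.941 in the 25 °C libraries. The groups overlapped at Heat_25 replicate 1. The difference of 0.00450 did not pass (exact two-sided permutation test over 70 regroupings, p = 0.0857, where the smallest possible is 0.0286). Without Heat_25 replicate 1 the groups no longer overlapped, so the p of 0.0286 was the smallest that test can give, at a difference of 0.00582. With any 1 of the other libraries left out, the same test gave a p from 0.0857 to 0.114. Median coverage averaged 83025 ± 15717 reads at 29 °C and 73769 ± 7455 at 25 °C (4 libraries each, SD, exact permutation p = 0.371), and coverage of single sites ran from 455 to 355472 reads in the 8 libraries. A head holds many cell types, so a change in every cell and a change in the share of cells cannot be told apart.

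The other head groups set the 5 sites in a wider range, described without a test. The nutrient and paraquat flies differed in food or treatment, and their temperature is not given in the labels. The nutrient flies also differed in the number of days. At 28S Gm2243 the score was 0.943 to 0.953 at 18 °C, 0.961 to 0.970 at 25 °C and 0.983 to 0.987 at 29 °C, with no overlap. In low-nutrient heads it was 0.983 to 0.985, on 1x food 0.973 to 0.985, with paraquat 0.982 to 0.987 and on sucrose 0.982 to 0.989. The 29 °C libraries thus stood inside the range of those 14 libraries, and the 25 °C libraries below all of them.

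18S Cm1303 showed no such order over temperature, at 0.923 to 0.965 at 18 °C, 0.889 to 0.926 at 25 °C and 0.959 to 0.974 at 29 °C. Its lowest value in the nutrient and paraquat experiments was 0.935, on 1x food, again above all 25 °C libraries. 18S Am441 had 0.934 to 0.961 at 18 °C, 0.922 to 0.945 at 25 °C and 0.948 to 0.964 at 29 °C, and 1x food, at 0.932 to 0.949, overlapped both of the last 2.

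28S Gm2502 had 0.958 to 0.971 at 18 °C, 0.974 to 0.977 at 25 °C and 0.982 to 0.987 at 29 °C. As at 28S Gm2243, these ranges rose with temperature without overlap. Over the nutrient and paraquat experiments the score was 0.974 to 0.983. Here the 25 °C libraries lay at the low end of that range and the 29 °C libraries at its top or above it. 18S Gm393 had a mean of 0.966 at 18 °C and at 25 °C and 0.974 at 29 °C. In the other heads the mean was 0.960 in low-nutrient heads, 0.965 on 1x food and 0.962 with paraquat, below that at 25 °C, and 0.974 on sucrose.

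**Figure D5:**
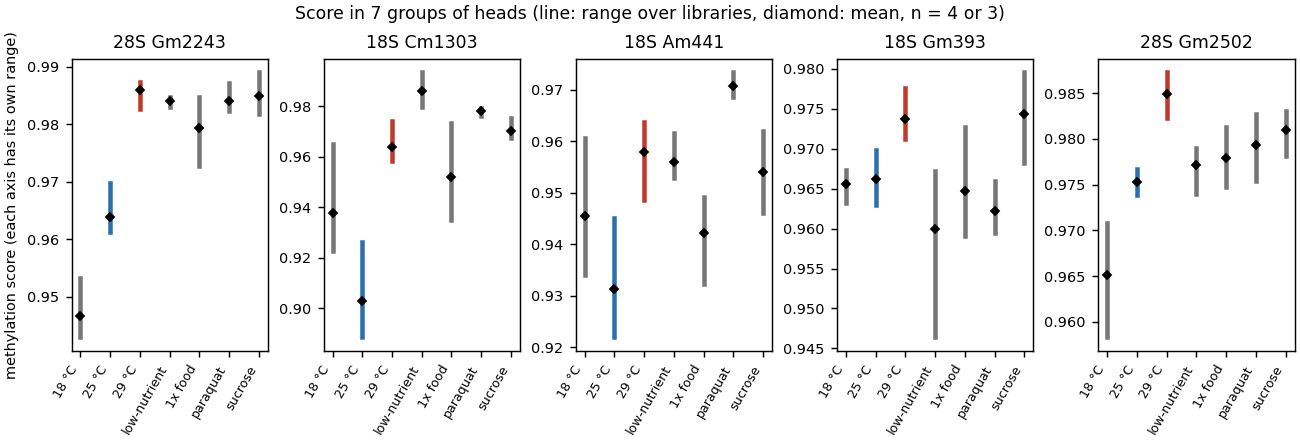
Methylation score (y axis, own range in each panel) of the 5 sites in 7 groups of heads; lines span the libraries of a group and diamonds mark its mean (n = 4, or 3 for paraquat and sucrose). At 28S Gm2243 and 18S Cm1303 the 25 °C line (blue) lies below the lines of the nutrient and paraquat experiments, and the 29 °C line (red) overlaps at least 1 of them.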

How the data were processed

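The tables are the authors' deposited files, 1 per library. Per the submitters' processing notes the tools were Trimmomatic 0.39 and Bowtie2 with the build dm6; no source used here states what reads were aligned to, how they were filtered or how the score is calculated. Hydrolysis of 150 ng RNA ran 16 min at 96 °C, followed by single reads of 50 bases, per the labels' protocols; that text names S2R+ cells only. The deposited methylation score was used on its linear scale (0.0876 to 0.998 in the 8 libraries). The deposited coverage signal is a read depth, not normalized; read ends are whole numbers, with 0.1 standing for none at 16 of the 576 5′ values, here set to 0. Neighbouring positions were not used here, so no score was recomputed and no interval for a single library was given.

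Each of the 72 sites was tested with limma 3.58.1 run under R 4.3.3 (two-sided, moderated by eBayes, Benjamini-Hochberg over 72 sites), 29 minus 25 °C, in 1 fit of the 12 temperature libraries. Single values per library were compared by exact permutation of all regroupings in Python 3.11.15 (numpy 2.4.6, pandas 2.3.3, scipy 1.17.1). The fit was tested on simulated data with known shifts. Sites named are those that passed by score or read ends, the 10 largest differences per direction, the 5 nearest to 0, those under a mean of 0.9, with a named enzyme, most variable, or with groups that did not overlap. Comparison, site lists and tests were chosen with earlier results of these data known. The labels leave unsaid whether replicates come from separate flies, so p-values measure the spread between libraries, which may be technical. Read ends differed beyond sampling noise in all 12 within-group pairs (lowest ratio of chi-square to degrees of freedom 1.78). Same-numbered libraries did not deviate together (r from -0.340 to 0.0246), so the numbers were not taken as pairs. Of 109 listed guide identifiers, 1 has a name in the reference table. Library numbers in the tables run consecutively by temperature, so their order and temperature cannot be told apart.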

Additional observations from a re-analysis of the deposited data

Results flagged for a closer look

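In 7 of the 90 groups of 4 values tested, 1 library lay far from the other 3; chance flags about 1 in 20. Heat_29 replicate 2 was low at 18S Am469 (score 0.762, others 0.791 to 0.797) and at 28S Gm2243 (0.983, others 0.987). Heat_29 replicate 4 was low at 18S Um[Psi]568 (0.885, others 0.893) and at 18S Gm1300 (0.863, others 0.873 to 0.874). Heat_25 replicate 1 was high at 28S Gm2243 (0.970, others 0.961 to 0.962). Heat_25 replicate 4 was low at 28S Cm2744 (0.977, others 0.981 to 0.982) and at 5.8S Gm74 (0.977, others 0.985 to 0.986). At 28S Gm2243 both outlying libraries lay on the side of the other group.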

How the results depend on the processing

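The 5 score calls became 12 on the 8 libraries alone, 2 with the replicate number as a block (replicate block), 12 with scores centred on library medians (5 higher, 7 lower), 3 with a spread trend and robust estimate, 3 and 2 with the other deposited scores, and 2 to 10 with any 1 of the 12 libraries left out (10 without Heat_18 replicate 3, 8 without Heat_18 replicate 2, 2 or 3 without any 1 of the others). An exact permutation test per site passed 0 of 72 (17 at the smallest p of 0.0286; limma 15 at an unadjusted p under 0.05), since 4 against 4 gives no smaller p. As log2 odds, 6 scores passed, and 5 with a coverage of at least 10000 reads. Under every score setting but centring, 0 sites passed as lower at 29 °C. The 7 summed read end calls became 15 on the 8 libraries alone, 18 with 5′ ends, 0 with 3′ ends, and 5 to 16 with 1 library left out (16 without Heat_18 replicate 3), with at most 2 sites higher at 29 °C in any of these. The 18 calls of 5′ ends became 6 with centred shares and 11 to 23 with 1 library left out; the 0 of 3′ ends became 4 on the 8 libraries alone, 2 centred and 0 to 1. Coverage gave 0 throughout. The mean score difference ran from 0.00316 to 0.00582 with 1 library left out, and with replicate pairs its exact p was 0.125, the smallest possible. With the block, 28S Gm2243 and 18S Cm1303 passed, both at an adjusted p of 0.00564. The causes were not tested. Read end counts were low at some sites, with 17 to 56 5′ ends per library at 18S Am441 and 1 to 7 at 28S Am2634. The settings without a Heat_18 library and the separate tests of 5′ and 3′ ends were chosen after seeing the data.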

Other observations

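Replicates 1 and 2 resembled each other in their read ends, and so did replicates 3 and 4, within both temperatures, as seen after the values were at hand. At 29 °C the chi-square over its degrees of freedom was 2.63 between replicates 1 and 2 and 1.78 between 3 and 4, and 3.46 to 6.13 for the other 4 pairs. At 25 °C it was 1.95 and 2.47, and 3.78 to 5.24 for the others. The labels name no batch, and the source of this resemblance was not tested. All tests counted the 4 libraries of a group as separate units, and no fit grouped them as 1 with 2 and 3 with 4. What the resemblance does to the p-values was not tested.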
